A study of Mus musculus with 7 samples.

Results

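The 40 mitotic and G2/M genes act in the G2 phase of the cell cycle and in mitosis, and they were taken by symbol from read counts of lineage-negative (lin-) marrow of HRP-2 knockout mice and their wild type controls. They are a hand-written list without a cut on their values, but earlier results of these data were known when it was chosen. All 40 were among the 25033 gene symbols counted, and all 40 were among the 11265 genes with enough reads to be tested. Lin- cells are what remains of bone marrow after cells with surface markers of mature blood lineages have been removed, and they hold the dividing progenitors of the blood. HRP-2, a chromatin reader encoded by *Hdgfl2*, is the paralog of LEDGF/p75, and the study asked what its loss does to blood formation. RNA was taken from 3 wild type (Hrp2+/+) and 4 knockout (Hrp2-/-) mice, each library coming from a separate mouse.

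The knockout mice carry the systemic allele HRP-2 tm1b on the C57BL/6N background. The allele acts in every tissue, so effects inside the marrow cells and effects of the surrounding tissue cannot be told apart. Cells came from the leg bones of mice 6 to 8 weeks old, and both genotypes descend from heterozygous crossings. Libraries held 1 fragment per transcript from near its 3′ end, so reads were not scaled to transcript length, and levels are given as CPM, the reads of a gene scaled to a common library size with the TMM factors of edgeR. The libraries held 3525665 to 4490287 reads on genes in the wild type mice and 4355974 to 5605158 in the knockout mice. *Hdgfl2* itself stood at 50.02, 43.7 and 44.6 CPM in wild type replicates 1 to 3 and at 2.53, 0.623, 1.49 and 0.498 CPM in knockout replicates 1 to 4, which matched every genotype label (log2 fold change −5.09, adjusted p = 1.38e-07, edgeR's quasi-likelihood test).

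Libraries of a genotype differed in other ways. *Rn45s*, the precursor of ribosomal RNA, took from 4.94% of the reads in knockout replicate 1 to 20.6% in wild type replicate 2. Knockout replicate 3 had 104.5 CPM of the Y-linked gene *Ddx3y* and 0.561 CPM of *Xist*, while the other 6 mice had 229 to 303 CPM of *Xist*, so sex was not the same in all mice. Progenitor genes were well covered in all 7 mice, among them *Myb* at 592 to 746 CPM and *Sox4* at 224 to 371 CPM. Late neutrophil genes were present as well, with *S100a8* between 1958 and 7152 CPM. Erythroid markers summed to 379 to 763 CPM, with *Tfrc* at 223 to 387 CPM, and 2 of the 14, the globin genes *Hba-a1* and *Hbb-bt*, were listed at 0 in every mouse, which says nothing about the presence of erythroid cells.

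A cell enters mitosis when cyclin B and *Cdk1* form an active kinase, and the mitotic kinases then drive chromosome condensation, spindle assembly and the attachment of chromosomes to the spindle. A ubiquitin ligase, the anaphase-promoting complex, ends mitosis by destroying cyclins and the cohesion of sister chromatids, after which the spindle midzone guides cytokinesis. Most of these genes are transcribed late in the cell cycle, through CCAAT boxes bound by NF-Y and through the cell cycle genes homology region, whose core TTTGAA is bound by the MuvB complex together with B-Myb and FoxM1, and in dividing marrow progenitors their RNA is widely used as a sign of proliferation.

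The promoters of the members share these letters. RefSeq promoters on GRCm38.p6, from 250 bases before to 50 after a start site, were matched by symbol to 35 of the 40 members, all but *Kif20a*, *Ccna2*, *Tpx2*, *Smc4* and *Aurkb*. Both strands were searched for TTTGAA (reverse complement TTCAAA) and CCAAT (reverse complement ATTGG), which can share an end base. TTTGAA was in the promoters of 27 members, CCAAT in those of 29, and both in those of 25. The 6 sequences below are those of the members with the highest mean level among the 15 that hold both motifs between 120 bases before and 20 after the start, and are shown because the spacing of the motifs can be read from them. Capitals mark TTTGAA as well as each CCAAT box, or the reverse complement of either, and each sequence runs 5′ to 3′ on the strand of the gene.
Top2a (chr11:99024170-99024309, minus strand): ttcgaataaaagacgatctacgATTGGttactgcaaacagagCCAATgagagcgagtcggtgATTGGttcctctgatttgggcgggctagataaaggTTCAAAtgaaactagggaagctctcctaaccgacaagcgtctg
Cdk1 (chr10:69352893-69353032, minus strand): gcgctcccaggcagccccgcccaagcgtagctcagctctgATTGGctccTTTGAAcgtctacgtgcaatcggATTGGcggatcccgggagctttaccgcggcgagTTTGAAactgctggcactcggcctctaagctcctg
Cdca8 (chr4:124936898-124937037, minus strand): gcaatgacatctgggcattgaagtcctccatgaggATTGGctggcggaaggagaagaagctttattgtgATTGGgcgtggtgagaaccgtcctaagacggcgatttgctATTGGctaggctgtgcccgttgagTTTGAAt
Kif23 (chr9:61946780-61946919, minus strand): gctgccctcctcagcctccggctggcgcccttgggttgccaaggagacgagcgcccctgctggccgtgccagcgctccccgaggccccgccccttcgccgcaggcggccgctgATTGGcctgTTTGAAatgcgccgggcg
Ube2c (chr2:164769809-164769948, plus strand): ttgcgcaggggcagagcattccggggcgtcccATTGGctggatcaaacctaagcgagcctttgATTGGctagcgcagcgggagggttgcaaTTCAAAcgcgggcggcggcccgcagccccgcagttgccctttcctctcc
Racgap1 (chr15:99651637-99651776, minus strand): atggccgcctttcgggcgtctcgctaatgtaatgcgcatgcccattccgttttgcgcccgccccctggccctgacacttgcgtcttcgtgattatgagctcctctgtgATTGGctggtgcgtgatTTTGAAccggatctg

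In *Top2a* the TTCAAA began 23 bases before the start, with CCAAT or ATTGG at 98, 78 and 58 bases before it. In *Cdk1* a TTTGAA lay 71 and another 15 bases before the start, with ATTGG at 80 and 48. *Ube2c* held ATTGG at 88 and 57 bases and TTCAAA at 29 bases before the start. In *Cdca8*, *Kif23* and *Racgap1* the TTTGAA began 13, 2 and 5 bases after the annotated start, and the nearest ATTGG 11, 7 and 12 bases before it. Within these 6 windows the TTTGAA, on either strand, had a CCAAT box upstream of it.

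Counted over promoters, 78.4% of the 37 member promoters held TTTGAA, 83.8% held CCAAT and 73.0% held both. The shares over all 32851 RefSeq promoters were 17.9%, 37.4% and 6.95%, and over the promoters of the genes tested 12.2%, 38.0% and 4.99%. Of a longer list of 85 other mitotic genes, written by hand, 68 were matched to 77 promoters, with shares of 48.1%, 61.0% and 32.5%. Of 60 S phase genes 49 were matched to 58 promoters, with shares of 19.0%, 53.4% and 10.3%. The related letters TTTAAA were in 24.3% of the member promoters and in 13.2% of all promoters. *Nuf2*, *Nusap1* and *Tacc3* held none of these motifs in the window, and *Birc5*, *Ccnb1* and *Cenpe* held TTTAAA but no TTTGAA. These matches describe letters and not bound sites.

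No member passed the test between the genotypes. Of the 40 members 0 were called at an adjusted p under 0.25, the threshold of the study, and 0 at 0.05 with edgeR's quasi-likelihood test, against 2 of all 11265 genes tested (0.0178%). DESeq2, limma-voom and edgeR's likelihood ratio test also called 0 members. At an unadjusted p under 0.05 the count was again 0 of 40 members, beside 409 genes (3.63%, of which 1.56% higher and 2.07% lower) among all genes tested, and the smallest adjusted p of a member was 0.999. In 0 of 40 members did the CPM values of the 4 knockout mice lie all above or all below those of the 3 wild type mice, a separation seen in 581 of all genes tested (5.16%, of which 2.37% above and 2.79% below). In bulk RNA, fewer cells of a type and less RNA per cell cannot be told apart.

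Added up, the 40 members took 5241, 5679 and 5552 CPM in wild type replicates 1 to 3 and 5351, 5292, 5804 and 5732 CPM in knockout replicates 1 to 4. Wild type replicate 1 was the lowest and knockout replicate 3 the highest of the 7 mice, and the genotypes overlapped. Wild type cells had a mean of 5491 ± 225 CPM (SD, n = 3). Knockout cells had a mean of 5545 ± 260.5 CPM (SD, n = 4), a ratio of 1.01. The highest mouse stood 1.11 times above the lowest.

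Of the 40 log2 fold changes (knockout minus wild type), 25 were above 0 and 15 below (21 to 28 above 0 with other scaling factors), with a median of 0.02 beside −0.0014 over all genes tested. The values ran from −0.65 for *Kif20a* to 0.39 for *Ncapg*, and 34 members lay between −0.2 and 0.2. The 95% interval of the log2 fold change lay inside −0.5 to 0.5 for 28 members and inside −1 to 1 for 37, *Cks2*, *Kif20a* and *Ncapg* being the exceptions. Without knockout replicate 3, whose *Xist* and *Ddx3y* stood apart, 0 members were called, the median was −0.00030 and the ratio of the sums was 0.994.

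**Figure D1:**
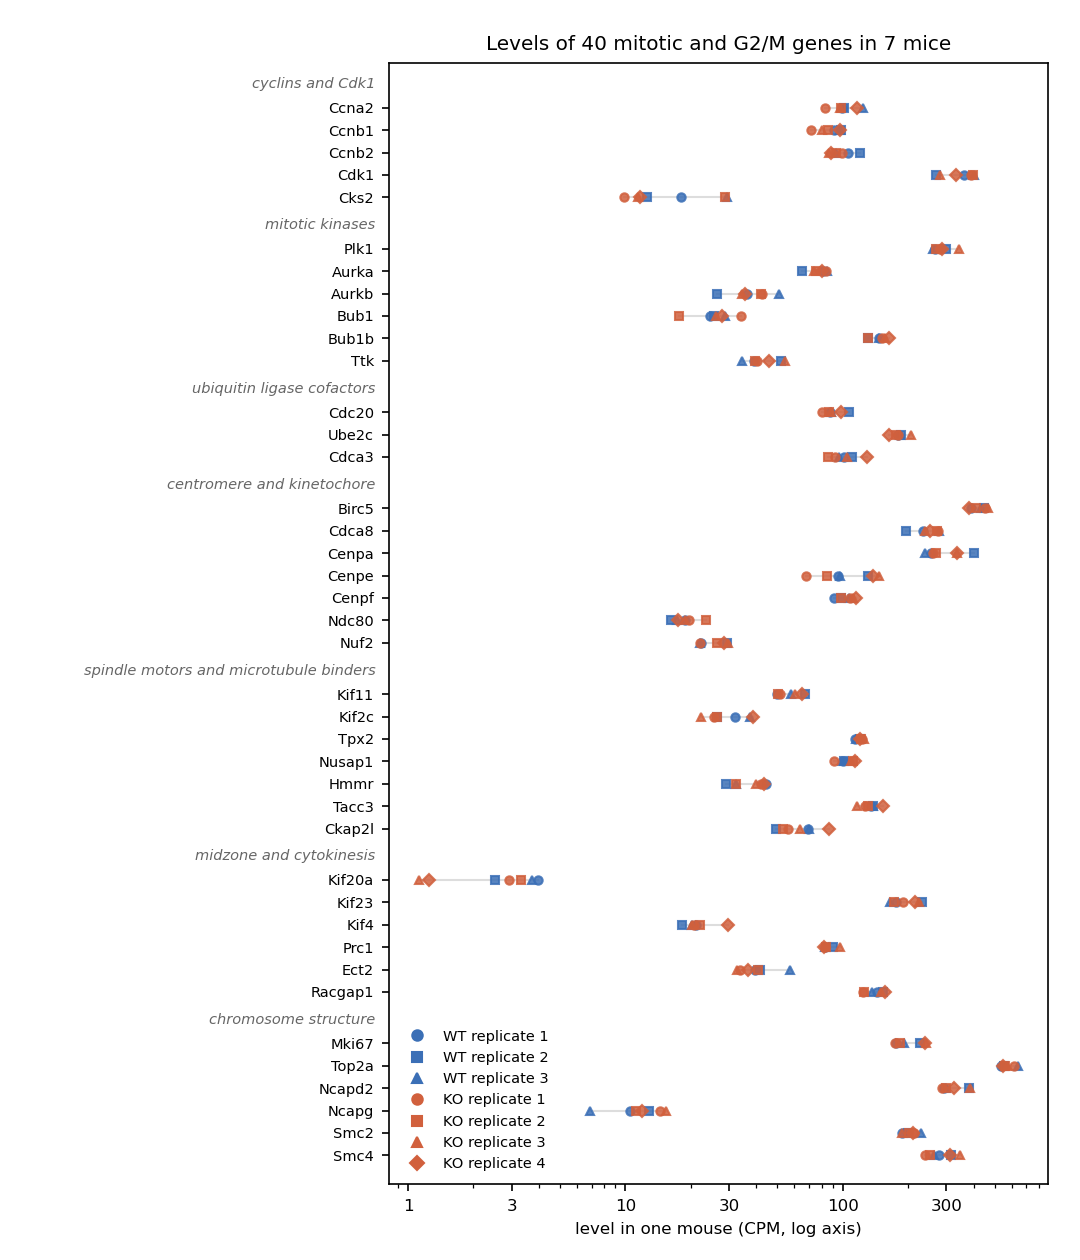
Level of each of the 40 members in each of the 7 mice (CPM, log axis), grouped by role, with wild type mice in blue, knockout mice in orange and a grey line from the lowest to the highest mouse. Colours are mixed within every row, *Top2a* is highest with 535 to 638 CPM, and the rows of *Kif20a*, *Cks2* and *Ncapg* are the widest with a low level.

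The plot of levels in each mouse shows a wider range between genes than between mice. The median member had a mean of 102.9 CPM, 21 members were above 100 CPM and 8 were under 30 CPM, and 26 lay among the 25% of genes tested with the highest means. *Top2a*, *Birc5*, *Cdk1*, *Ncapd2* and *Cenpa* had the highest means, and *Kif20a*, *Ncapg*, *Cks2*, *Ndc80* and *Kif4* the lowest. For the median member the highest of the 7 mice stood 1.398 times above the lowest, against 1.788 times over all genes tested, which have a lower median level of 28.2 CPM. The fold was under 1.5 in 25 members, beside 27.0% of all genes tested, and over 2 in 4 members, *Kif20a*, *Cks2*, *Ncapg* and *Cenpe*.

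The cyclins and their kinase act at the entry into mitosis. *Cdk1*, the partner kinase of the cyclins, stood at 363, 269.6 and 400.1 CPM in wild type replicates 1 to 3 and at 388, 398, 279.9 and 332 CPM in knockout replicates 1 to 4. Each genotype held high and low mice, with wild type replicate 2 and knockout replicate 3 lowest, and the log2 fold change was 0.02 ± 0.16 (SE). *Ccnb1*, which encodes cyclin B1, the main partner of *Cdk1* in mitosis, stood at 90.8, 98.6 and 96.7 CPM in wild type and at 71.3, 85.6, 80.5 and 97.7 CPM in knockout mice. Knockout replicates 1, 2 and 3 were below the 3 wild type mice and knockout replicate 4 was among them (log2 fold change −0.19 ± 0.15, unadjusted p = 0.217, edgeR's quasi-likelihood test).

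*Ccnb2*, the second B-type cyclin, stood at 105.3, 120.7 and 93.5 CPM in wild type and at 99.1, 92.9, 86.9 and 88.0 CPM in knockout mice. Knockout replicate 1 lay above wild type replicate 3 and the other knockout mice lay below the 3 wild type mice, and the log2 fold change of −0.22 ± 0.14 had an unadjusted p of 0.147 with edgeR's quasi-likelihood test. *Ccna2*, encoding cyclin A2 of S phase and G2, ranged from 82.6 to 125 CPM with a log2 fold change of −0.14 ± 0.15. *Cks2*, a small Cdk-binding subunit, stood at 18.0, 12.6 and 29.5 CPM in wild type and at 9.91, 28.9, 11.4 and 11.7 CPM in knockout mice. A single mouse of each genotype, wild type replicate 3 and knockout replicate 2, lay far above the others in *Cks2*, whose log2 fold change was −0.37 ± 0.38. It was −0.86 without knockout replicate 2 and 0.01 without wild type replicate 3, and neither value was called. Of these 5 genes 4 had a log2 fold change below 0 with every scaling tried, with a median of −0.19, and none passed the test.

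The kinases and checkpoint genes varied to unlike degrees between mice. *Plk1*, the Polo-like kinase of centrosome maturation and mitotic exit, stood at 267, 299 and 260.4 CPM in wild type and at 280.2, 269.9, 345 and 287 CPM in knockout mice. Knockout replicate 3 was highest and the other 3 knockout mice lay within the range of the wild type mice (log2 fold change 0.10 ± 0.13). *Aurkb*, the kinase of the chromosomal passenger complex that corrects faulty attachments, stood at 36.2, 26.3 and 51.0 CPM in wild type and at 42.4, 42.2, 34.4 and 35.4 CPM in knockout mice. All 4 knockout mice lay inside the spread of the 3 wild type mice, and the log2 fold change was 0.03 ± 0.21. *Aurka*, the kinase of spindle poles, ranged from 64.7 to 84.5 CPM, and *Bub1b*, a checkpoint protein that restrains the anaphase-promoting complex, from 130.2 to 164 CPM. *Bub1* and *Ttk*, the checkpoint kinases that act at kinetochores, ranged from 17.7 to 34.0 CPM and from 34.3 to 54.6 CPM. All 6 log2 fold changes were above 0, between 0.01 and 0.11, and none passed the test, but among the alternatives *Aurka* went down to −0.08, *Aurkb* to −0.17, *Bub1* to −0.13 and *Ttk* to −0.01. *Plk1* and *Bub1b* alone stayed above 0 in all 18 alternatives.

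The cofactors of ubiquitin ligases had log2 fold changes on both sides of 0. *Cdc20*, the activator of the anaphase-promoting complex at anaphase, stood at 87.3, 106.4 and 88.5 CPM in wild type and at 80.6, 86.9, 88.2 and 98.4 CPM in knockout mice. Wild type replicate 2 was highest and knockout replicate 4 next, so that the genotypes overlapped, and the log2 fold change was −0.09 ± 0.14. *Ube2c*, the ubiquitin-conjugating enzyme of that complex, ranged from 163 to 206 CPM with a log2 fold change of −0.0074 ± 0.13. *Cdca3*, a cofactor that brings a ubiquitin ligase to the mitosis-entry inhibitor *Wee1*, ranged from 85.2 to 129 CPM with a log2 fold change of 0.0049 ± 0.16.

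Genes of the centromere and kinetochore, where spindle fibres attach to chromosomes, had 7 of 7 log2 fold changes above 0, with a median of 0.11, but among the alternatives *Cenpe* went down to −0.18 (with the replicate block), *Cenpa* to −0.13 and *Birc5* to −0.03. The other 4 stayed above 0 in all 18 alternatives, and none of the 7 passed the test. *Cenpa*, the histone H3 variant that marks centromeres, stood at 255, 403 and 238 CPM in wild type and at 259, 269.5, 337 and 336 CPM in knockout mice. Wild type replicate 2 was highest by a wide margin, and the other wild type mice were the lowest of all 7. The log2 fold change of *Cenpa* was 0.01 ± 0.17, and 0.28 without wild type replicate 2, not called in either fit. *Cenpe*, the kinesin that carries chromosomes to the spindle equator, stood at 94.8, 131 and 97.2 CPM in wild type and at 67.8, 84.4, 147 and 138 CPM in knockout mice. The knockout mice fell on both sides of the wild type mice, replicates 1 and 2 below and replicates 3 and 4 above them.

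*Birc5*, which encodes survivin of the passenger complex, was second in level with 379.7 to 468 CPM, and *Cdca8*, which encodes borealin of the same complex, ranged from 196 to 277 CPM. Their log2 fold changes were 0.01 ± 0.13 and 0.14 ± 0.14. *Cenpf*, a large kinetochore protein, ranged from 91.3 to 115 CPM with a log2 fold change of 0.14 ± 0.14. *Ndc80* and *Nuf2*, which form the microtubule-binding arm of the kinetochore together, ranged from 16.2 to 23.5 CPM and from 22.0 to 29.7 CPM, with log2 fold changes of 0.18 ± 0.23 and 0.11 ± 0.21.

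Among spindle motors and microtubule binders, *Kif11*, the kinesin that pushes the spindle poles apart, stood at 49.8, 67.2 and 57.9 CPM in wild type and at 51.3, 50.5, 60.5 and 65.0 CPM in knockout mice. The wild type mice were both lowest and highest, and the log2 fold change was −0.04 ± 0.17. *Tpx2*, an activator of Aurora A at the spindle, varied least of all 40 members, from 114 to 125 CPM, with a log2 fold change of 0.07 ± 0.13. *Nusap1* ranged from 91.5 to 114 CPM, *Tacc3* from 116 to 153 CPM, *Ckap2l* from 49.3 to 86.2 CPM and *Hmmr* from 29.1 to 44.3 CPM. These 4 encode proteins that bind or stabilise spindle microtubules, and their log2 fold changes lay between −0.06 and 0.16. *Kif2c*, a kinesin that shortens microtubules at centromeres, ranged from 22.2 to 38.9 CPM with a log2 fold change of −0.18 ± 0.22.

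Midzone and cytokinesis genes held the smallest p of the 40 members. *Ect2*, the exchange factor that turns on RhoA at the site of division, stood at 39.5, 41.4 and 57.1 CPM in wild type and at 33.8, 40.7, 32.7 and 36.9 CPM in knockout mice. Only knockout replicate 2 lay above the lowest wild type mouse, and wild type replicate 3 stood well above all others. The log2 fold change was −0.35 ± 0.19 with a 95% interval of −0.75 to 0.04 (unadjusted p = 0.0760, adjusted p = 0.999, edgeR's quasi-likelihood test), and −0.17 without wild type replicate 3. *Racgap1*, the partner of *Kif23* in the centralspindlin complex that binds *Ect2*, stood at 144, 154 and 136 CPM in wild type and at 125, 126, 150.2 and 157 CPM in knockout mice. Knockout replicates 1 and 2 were below, and replicates 3 and 4 among or above, the wild type mice (log2 fold change −0.05 ± 0.14).

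*Kif23*, the motor subunit of that complex, ranged from 165 to 232 CPM, *Prc1*, which crosslinks midzone microtubules, from 82.5 to 96.8 CPM, and *Kif4*, the X-linked motor that carries *Prc1*, from 18.2 to 29.6 CPM. Their log2 fold changes were 0.07 ± 0.15, 0.02 ± 0.14 and 0.22 ± 0.22. *Kif20a*, a midzone kinesin that brings *Plk1* and the passenger complex to their place, was the lowest member, with 3.95, 2.52 and 3.72 CPM in wild type and 2.92, 3.32, 1.12 and 1.25 CPM in knockout mice. These values rest on 5 to 18 reads per mouse, knockout replicates 3 and 4 having the fewest, and the interval of its log2 fold change of −0.65 ran from −1.86 to 0.56.

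Genes of chromosome structure had the highest median level of the 7 roles, 246 CPM. *Top2a*, the topoisomerase that untangles sister DNA and the highest member, stood at 535, 552 and 638 CPM in wild type and at 616, 555, 570.3 and 547 CPM in knockout mice. All knockout mice lay inside the range of the wild type mice, and the log2 fold change was −0.0075 ± 0.12, with an interval of −0.27 to 0.25. *Mki67*, which encodes the proliferation antigen Ki-67 that coats mitotic chromosomes, stood at 176, 226 and 192 CPM in wild type and at 175, 185, 243 and 240.2 CPM in knockout mice. Knockout replicates 3 and 4 were highest and knockout replicate 1 lowest, so that the genotypes overlapped (log2 fold change 0.09 ± 0.15, interval −0.23 to 0.40).

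*Smc2*, *Smc4*, *Ncapd2* and *Ncapg* encode subunits of condensin, which compacts mitotic chromosomes. *Smc2* ranged from 187 to 230.1 CPM, *Smc4* from 239 to 346 CPM and *Ncapd2* from 285 to 385 CPM, with log2 fold changes between −0.02 and 0.01. *Ncapg* stood apart from them in level, at 10.5, 12.9 and 6.91 CPM in wild type and 14.4, 11.2, 15.3 and 11.96 CPM in knockout mice. Wild type replicate 3 was lowest and wild type replicate 2 lay among the knockout mice, and the log2 fold change of 0.39 ± 0.30 had an unadjusted p of 0.205 with edgeR's quasi-likelihood test.

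**Figure D2:**
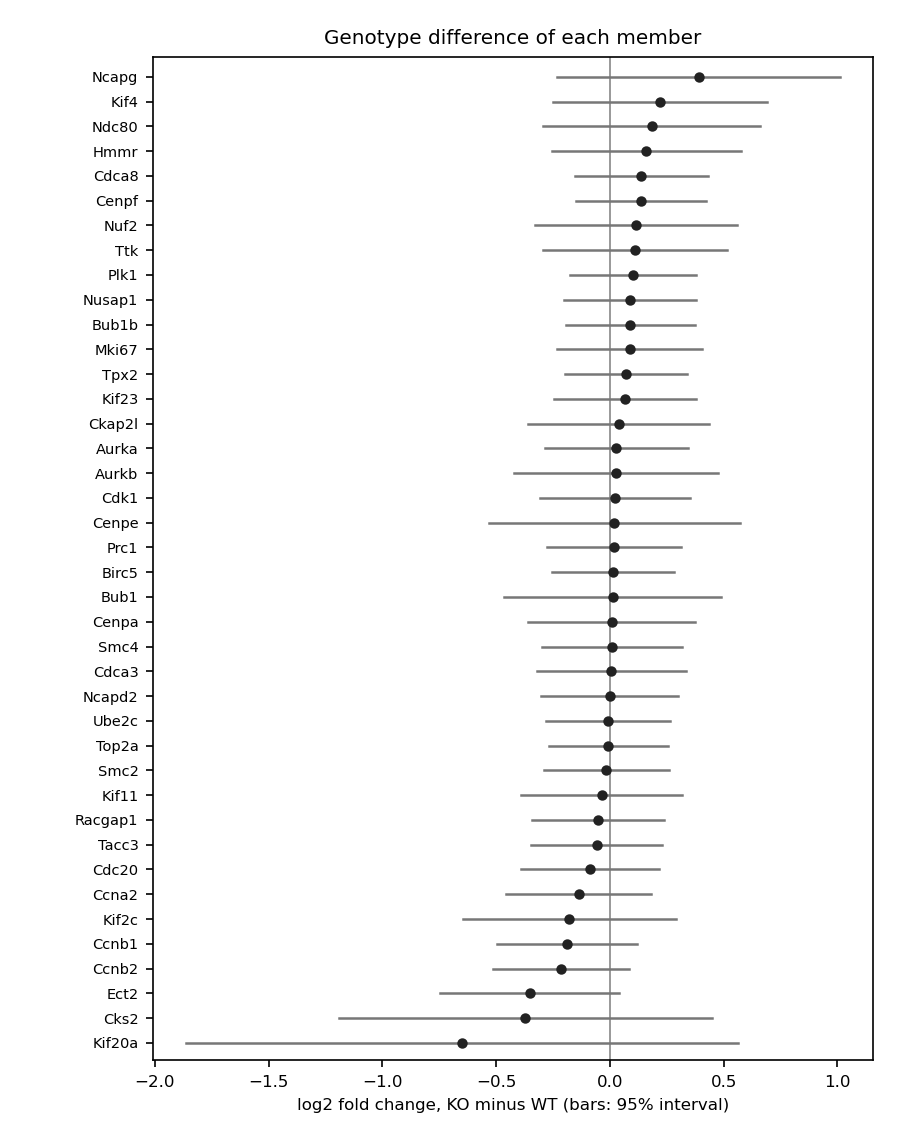
Log2 fold change (knockout minus wild type) of each of the 40 members, as points with 95% intervals from edgeR's quasi-likelihood fit, sorted by size. Every interval crosses 0, and those of *Kif20a*, *Cks2* and *Ncapg* reach past −1 or 1.

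In the plot of genotype differences the widest intervals belong to members with few reads. Some of them lie at crowded gene ends, which matters for reads that fall near the 3′ end. In GENCODE M21 on GRCm38, the last 500 exonic bases overlapped a gene on the other strand in 6 members and a gene on the same strand in 0 members. The overlap covered all 500 bases in *Kif20a* (with *Cdc23*), in *Prc1* (chr7:80294450-80316259, with *Rccd1*) and in *Ncapg* (chr5:45669919-45700546, with *Lcorl*). It covered 181 bases in *Ckap2l*, 147 bases in *Ccna2* and 53 bases in *Cdc20*. The lowest members, *Kif20a* and *Ncapg*, are among these 6. The neighbours stood at 0 to 3.07 CPM for *Cdc23*, 0 to 2.72 CPM for *Rccd1* and 17.1 to 33.5 CPM for *Lcorl*. The strand setting of the counting is not given in the sources used here, so the levels of these members are uncertain, and the part of the overlaps in them was not tested.

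Other gene lists of the cell cycle were written by hand for comparison. Of 85 other mitotic genes 82 could be tested, of which 29 had a log2 fold change above 0 and 53 below, with a median of −0.06, and 0 were called by edgeR, DESeq2 or limma-voom. At an unadjusted p under 0.05 there were 2 of them, *Pmf1* (kinetochore), with a log2 fold change of 0.34, and *Oip5* (centromere loading), with −0.70, a count of 2 of 82 beside 3.63% of all genes tested, so that the list did not exceed the background. The list summed to 4759 ± 189 CPM (SD, n = 3) in wild type cells. In knockout cells the sum was 4733 ± 148 CPM (SD, n = 4). The condensin II subunit gene *Ncapg2* had the next smallest p of that list, with a log2 fold change of −0.45 ± 0.23.

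The S phase genes, whose products copy and package DNA, had 37 of 60 log2 fold changes above 0, a median of 0.06 and 0 calls by edgeR, DESeq2 or limma-voom, with 1 gene at an unadjusted p under 0.05 in edgeR's quasi-likelihood test. *Lig1*, the ligase that joins lagging strand fragments, stood at 555, 497 and 543 CPM in wild type and at 659.8, 614, 700.1 and 709 CPM in knockout mice. All knockout mice lay above all wild type mice, with a log2 fold change of 0.34 ± 0.12 and an unadjusted p of 0.0143, and the adjusted p was 0.999 with edgeR's quasi-likelihood test. *Chaf1a* and *Nasp*, which handle newly made histones, had log2 fold changes of 0.31 ± 0.15 and 0.25 ± 0.12 with the same separation. All knockout mice lay above all wild type mice in 6 of the 60 S phase genes (10%), beside 267 of all genes tested (2.37%), and in 0 of the 40 members. The difference between the lists was not tested.

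Regulators that act upstream of the members gave no call either. *Foxm1*, the transcription factor of G2 genes, had means of 71.1 ± 6.73 (SD, n = 3, wild type) and 72.2 ± 6.93 CPM (SD, n = 4, knockout). *Mybl2*, which encodes B-Myb, had means of 18.6 ± 2.99 and 22.3 ± 7.66 CPM in the same order. Of 20 cell cycle transcription factors tested, *Rbl2*, a pocket protein of resting cells, had the smallest unadjusted p (0.0448), with a log2 fold change of −0.76 ± 0.35, and *E2f1* and *Tfdp1* followed with 0.21 ± 0.14 and −0.20 ± 0.15. None of the 20 had an adjusted p under 0.25 in edgeR's quasi-likelihood test.

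**Figure D3:**
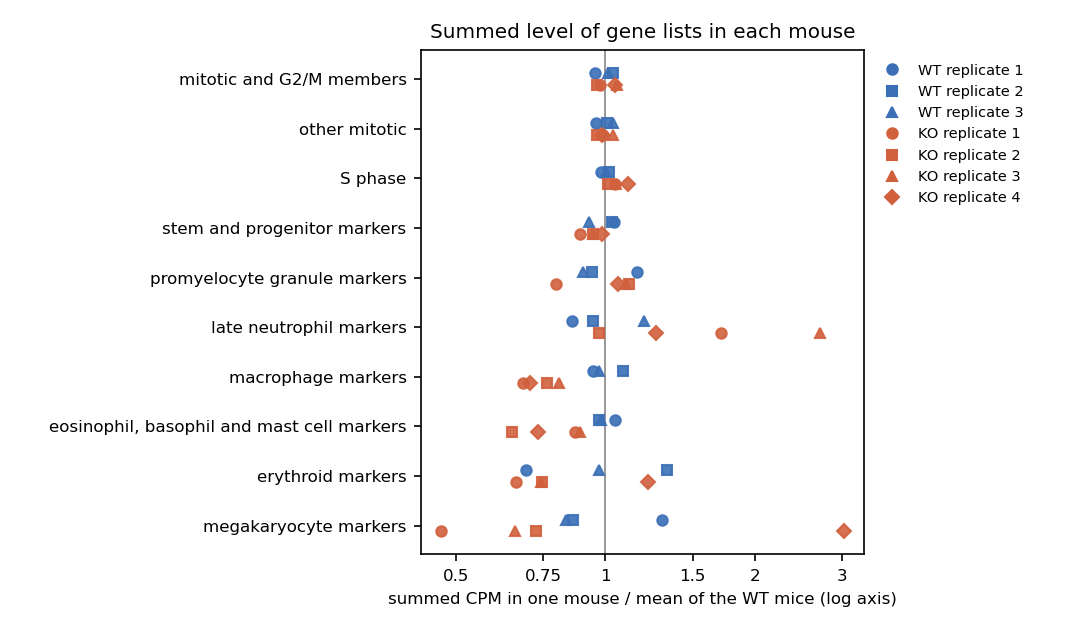
Summed CPM of the members, of 2 other cell cycle lists and of 7 cell type marker lists in each mouse, divided by the mean of the wild type mice (log axis), with wild type mice in blue and knockout mice in orange. The members lie within a narrow band around 1 in all 7 mice, whereas the late neutrophil and megakaryocyte lists spread widely.

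The mice differed more in the genes of blood cell types than in the members, as the plot of summed levels shows. The ratio of the highest to the lowest mouse was 1.11 for the 40 members, 1.08 for the other mitotic genes and 1.14 for the S phase genes. It was 1.17 for stem and progenitor markers, 1.46 for promyelocyte granule markers, 2.01 for erythroid markers, 3.15 for late neutrophil markers and 6.46 for megakaryocyte markers. Split by role, the members had ratios from 1.15 (ubiquitin ligase cofactors) to 1.34 (cyclins and *Cdk1*). The remaining cell cycle lists ran from 1.11 (anaphase-promoting complex) to 1.27 (cohesin). The lists differ in their number of genes, and the part of that in the ratios was not tested. Late neutrophil genes summed to 7989 to 11139 CPM in wild type and 9071 to 25203 CPM in knockout mice. All 10 of these genes had a log2 fold change above 0, and 0 of them passed an adjusted p of 0.25 or an unadjusted p of 0.05 in edgeR's quasi-likelihood test. Knockout replicate 3 had the highest sum of both the late neutrophil genes and the 40 members.

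Macrophage markers summed to 351 to 404 CPM in wild type and 254 to 301 CPM in knockout mice, without overlap, and eosinophil, basophil and mast cell markers to 4474 to 4826 CPM and 2988 to 4105 CPM, also without overlap. All 8 and all 10 of these genes had log2 fold changes below 0. None was called in edgeR's quasi-likelihood test, in which 5 and 4 of them had an unadjusted p under 0.05, beside 2.07% of all genes tested that were lower at that p. Every knockout mouse was lower than every wild type mouse in 6 of the 8 and 4 of the 10 genes, beside 2.79% of all genes tested. B lineage markers summed to 248 to 403 CPM in wild type and 173 to 466 CPM in knockout mice, and T and NK markers to 149.6 to 187 CPM and 105 to 210.1 CPM. The sums of both lists overlapped between the genotypes. At an unadjusted p under 0.05 in edgeR's quasi-likelihood test 2 of the 9 B lineage genes were lower. Of the 7 T and NK genes 1 was lower and 1 higher, beside 2.07% lower and 1.56% higher of all genes tested. Every knockout mouse was lower than every wild type mouse in 1 gene of each list, *Dntt* (log2 fold change −0.74) and *Klre1* (−1.05), and neither was called. The part of these cells in the levels of the members was not tested.

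Each mouse had members high and low. Of the 40 members, 13, 23 and 20 were above their mean over the mice in wild type replicates 1 to 3, and 16, 11, 24 and 29 in knockout replicates 1 to 4. Knockout replicate 3 was the highest mouse for 12 members and knockout replicate 1 the lowest for 11. Knockout mice were thus found at both ends of the members' order.

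The level of members was also set against the share of *Rn45s* reads in each library, in a test chosen after the data had been seen. With genotype in the same model, the change per 10 percentage points of *Rn45s* share passed an adjusted p of 0.25 in 3 of 40 members with edgeR's quasi-likelihood test, 2 of them higher and 1 lower, beside 249 genes higher (2.21%) and 289 lower (2.56%) of 11274 genes. At 0.05 the count was 0 members. The members' shares, 5% higher and 2.5% lower, lie near those of all genes and are not particular to the members: of the 60 S phase genes 5 were higher and 2 lower, of 12 erythroid markers 2 were higher with a median of 0.85 per 10 points, of 6 promyelocyte granule markers 2 were higher, and of 7 T and NK markers 2 were lower. *Cenpe* rose by 0.67 ± 0.15 on the log2 scale (adjusted p = 0.0978, edgeR) and *Cenpa* by 0.47 ± 0.12 (adjusted p = 0.114, edgeR), while *Cdk1* had a coefficient of −0.36 ± 0.12 (adjusted p = 0.229, edgeR). *Mki67* was just outside the threshold with 0.33 ± 0.12 (adjusted p = 0.251, edgeR).

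The values given above show the 3 libraries with the highest shares, wild type replicate 2 and knockout replicates 3 and 4, apart from the other 4 in *Cenpa*, *Cenpe* and *Cdk1*, without an even order among them. *Cenpa* was highest in wild type replicate 2, which had the highest *Rn45s* share, and *Cdk1* was lowest there. *Cenpe* was above 130 CPM in these 3 libraries and lowest in knockout replicate 1, which had the lowest share. Leaving out 1 mouse moved the count of called members between 1 and 10: it was 1, *Cenpe*, without wild type replicate 2 or without wild type replicate 3, and 10 without knockout replicate 4. The count over all genes moved too, from 538 with every mouse to 32, 37 and 1350 in these 3 fits, in the same order. *Cdk1* was not called without wild type replicates 1, 2 or 3 or knockout replicates 1 or 2, *Cenpa* not without wild type replicates 2 or 3, and *Cenpe* not without knockout replicate 1. With the log2 of the share *Cdk1* was not called either. *Mki67* was called with RLE factors, with at least 10 counts in every mouse, and without knockout replicate 3 or 4. Whether the share follows the cells or the preparation of the RNA was not tested.

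**Figure D4:**
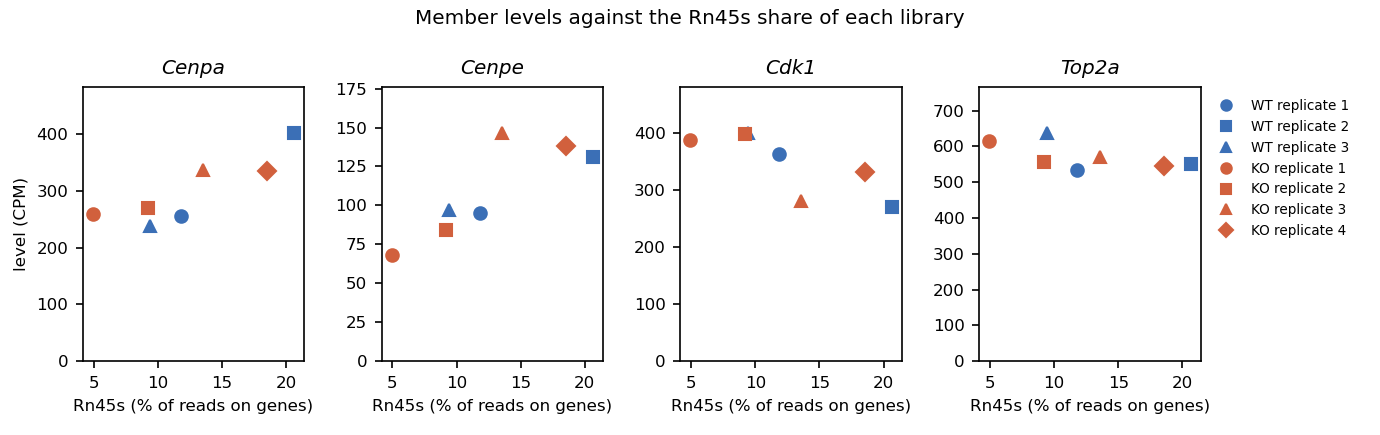
Level (CPM, axes from 0) of *Cenpa*, *Cenpe*, *Cdk1* and *Top2a* against the share of reads on genes taken by *Rn45s* (%), 1 point per mouse, wild type in blue and knockout in orange. *Cenpa* and *Cenpe* are higher and *Cdk1* lower in the 3 libraries with the highest shares than in the other 4, and *Top2a* stays between 535 and 638 CPM.

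In the plot of levels against the *Rn45s* share, *Top2a* is drawn for scale, as a member with a coefficient of −0.12 ± 0.11 that was not called. With the share as a covariate the comparison of genotypes called 0 of 40 members, with a median log2 fold change of 0.04.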

How the data were processed

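RNA of lin- bone marrow cells was measured in 7 mice. According to the methods of the study, the authors made 3′ end libraries from 500 ng of RNA, read them as 75 bp single reads, aligned them to GRCm38 with STAR and tested them with DESeq2. The deposited values are raw counts of reads per gene symbol, without normalization, and 5 tally rows per file were left out. Depth was 3525665 to 5605158 reads on genes, and 3 reads are worth 0.535 to 0.851 CPM before the TMM factors, for counting error only.

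Counts were scaled with TMM in edgeR 4.0.16 (R 4.3.3), filtered with filterByExpr and compared with the robust quasi-likelihood test, with Benjamini-Hochberg adjustment over all genes tested. The standard error was the log2 fold change divided by the square root of F. Genotypes came from sample titles. DESeq2 1.42.0, limma 3.58.1 with voom, other scaling factors, other filters, the replicate block, the *Rn45s* share and the omission of each mouse were alternatives, and the script was tested on simulated data. Every pair of same-genotype libraries varied beyond counting noise.

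The members, the comparison lists and the tests were chosen with earlier results of these data known. All 40 members could be named. Values in every mouse were given for *Mki67*, *Top2a*, *Ccnb1*, *Cdk1*, *Plk1*, *Aurkb*, *Cdc20*, *Cenpa*, *Kif11* and *Racgap1* and for the 5 members with the smallest p, and those of *Cks2* and *Cenpe* were added after they had been seen. Of the other cell cycle lists the 3 genes with the smallest p were named, with *Foxm1* and *Mybl2*. Of the marker lists *Myb*, *Sox4*, *S100a8* and *Tfrc* were named as the most abundant genes of theirs. *Dntt* and *Klre1* were named because their genotypes did not overlap, after this had been seen. No gene of the remaining marker lists was named. The globin genes, *Ddx3y* and the neighbours at gene ends were also named with their values known. Gene positions are those of GENCODE M21 on GRCm38 and promoters those of RefSeq on GRCm38.p6.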

Additional observations from a re-analysis of the deposited data

Results flagged for a closer look

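Of 62 values or sums checked among the 4 knockout mice, 7 had a mouse that stood far from the other 3. At 1 in 20 about 3.1 would do so if the values were independent, which they are not. The members are also part of their own sum, and *Ddx3y* is Y-linked, so the 2 counts cannot be compared. Of the 7 flagged, 2 were members. *Cks2* stood at 28.9 CPM in knockout replicate 2 and at 9.91 to 11.7 CPM in the other knockout mice. *Prc1*, whose 3′ end overlaps *Rccd1* on the other strand, stood at 96.8 CPM in knockout replicate 3 and at 82.5 to 83.5 CPM in the others.

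The summed level of the anaphase-promoting complex genes was 1144 CPM in knockout replicate 4 and 1049 to 1054 CPM in the others. In the same mouse the erythroid markers summed to 697 CPM, beside 379 to 427 CPM, and the megakaryocyte markers to 979.7 CPM, beside 152 to 235 CPM. Promyelocyte granule markers summed to 7181 CPM in knockout replicate 1 and to 9578 to 10052 CPM in the others. *Ddx3y* stood at 104.5 CPM in knockout replicate 3 and at 0 to 0.777 CPM in the others.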

How the results depend on the processing

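The counts of called members, other mitotic genes and S phase genes were 0 in all 18 alternatives. The median log2 fold change of the members moved by less than 0.0684 in all 18, a tolerance taken from the spread between mice of a genotype. That tolerance is wider than the median itself, so it allows a change of sign. The ratio of summed CPM lay between 0.992 and 1.028 when each mouse was left out. Over all genes the count of calls depended on the tool, with 2 genes in edgeR's quasi-likelihood test, 21 in DESeq2, 29 in the likelihood ratio test, 3 in limma-voom, 41 without a filter on low counts, 8 with the *Rn45s* share as a covariate and 2 to 7 without 1 mouse.

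The replicate numbers did not pair the mice (correlations of same-numbered mice −0.0249, −0.215 and −0.16), and with the replicate block 0 members and 1 gene in all were called, with a member median of 0.01.

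Of the uncalled members up to 9 of 40 changed the sign of their log2 fold change, without wild type replicate 2 or 3. *Ect2* lay between −0.45 and −0.17 over the alternatives, and *Cks2* had an unadjusted p under 0.05 without knockout replicate 2 in edgeR's quasi-likelihood test. *Kif20a* and *Hdgfl2* were not tested when at least 10 counts were asked of every mouse. The count of members called with the *Rn45s* share was 3, beside 538 over all genes. Without 1 mouse it was 1 to 10, beside 32 to 1350 over all genes. The depth limits members with few reads, above all *Kif20a*.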

Other observations

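Lists of neighbouring processes gave values that belong beside those of the members. Of the anaphase-promoting complex, the ligase that the cofactors *Cdc20* and *Ube2c* serve, 14 of 15 genes were tested, with 9 log2 fold changes above 0, 5 below and a median of 0.01. The 3 genes with the smallest unadjusted p were *Anapc10*, with a log2 fold change of 0.38 ± 0.32, *Anapc2*, with 0.18 ± 0.18, and *Fzr1*, the activator of late mitosis and G1, with 0.13 ± 0.14. Cohesin, the ring that holds sister chromatids together, had 6 of 10 log2 fold changes above 0 and a median of 0.02. Its genes *Smc1a*, *Rad21* and *Stag2* had the smallest unadjusted p, with log2 fold changes of 0.14, −0.10 and −0.09. Summed cohesin CPM was 1420, 1737 and 1407 in wild type replicates 1 to 3 and 1370.2, 1411, 1742 and 1601 in knockout replicates 1 to 4, so that wild type replicate 2 and knockout replicate 3 were the highest.

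Of the Cdk inhibitors, which hold cells out of the cycle, 5 of 8 were tested. *Cdkn1a*, which encodes p21, stood at 35.5, 35.6 and 17.8 CPM in wild type and at 41.6, 33.9, 42.6 and 44.3 CPM in knockout mice (log2 fold change 0.45 ± 0.23, unadjusted p = 0.0629, edgeR's quasi-likelihood test). Knockout replicate 2 lay below wild type replicates 1 and 2, and the others above them. *Cdkn3* and *Cdkn1b* followed with log2 fold changes of −0.35 and 0.16. The 8 G1 cyclins and Cdks had 4 log2 fold changes above 0 and 4 below. *Cdk6*, the G1 kinase with the smallest unadjusted p of that list, stood at 1173 to 1550.2 CPM, and *Ccne2* and *Cdk4* followed with log2 fold changes of 0.23 ± 0.31 and 0.17 ± 0.23. In these 4 lists 0 genes had an adjusted p under 0.25, and 0 an unadjusted p under 0.05, in edgeR's quasi-likelihood test.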
